A study of Mus musculus with 4 samples.

Results

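Ketone body and monocarboxylate use in the heart was followed through 4 genes, *Bdh1*, *Oxct1*, *Acat1* and *Slc16a1*, which were taken by name from the 55401 gene models of the expression table. Each name matched 1 gene model, and all 4 passed the filter on low values, a mean of at least 1 TPM (transcripts of a gene per fixed total, corrected for length) over the libraries, which 10036 gene models met. The data are RNA-seq libraries of hearts from mice aged 8 weeks, with 2 wild-type (*Ctcf* +/+) and 2 *Ctcf* heterozygous (*Ctcf* +/R567W) libraries. The heterozygous mice are C57BL/6N animals in which CRISPR/Cas9 editing placed the R567W substitution in 1 copy of *Ctcf*, the gene of the zinc finger protein that shapes chromatin loops. The edit is in the germline, so it is not limited to any cell type of the heart. Both genotypes were kept with free access to food and water, and sex and the number of founder animals are not given in the sources used here. The labels do not say that the libraries of a genotype came from separate mice, so the p values measure the spread between these libraries, which may be technical.

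Ketone bodies are made mainly by the liver and burned by other organs, and the heart is among their most active users. The protein of *Slc16a1*, monocarboxylate transporter MCT1, carries ketone bodies, lactate and pyruvate with a proton across the plasma membrane. In the mitochondrion, BDH1 oxidises β-hydroxybutyrate to acetoacetate, OXCT1 (also called SCOT) transfers coenzyme A from succinyl-CoA to acetoacetate, and ACAT1 splits acetoacetyl-CoA into acetyl-CoA for the tricarboxylic acid cycle. The step of OXCT1 is the one that commits a ketone body to oxidation, and the liver lacks it.

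In mm10 coordinates, *Slc16a1* (ENSMUSG00000032902.1) lies on the plus strand of chromosome 3 at chr3:104638668-104658462, with 1 annotated transcript of 5 exons. *Bdh1* (ENSMUSG00000046598.15) is on the plus strand at chr16:31422280-31458901, with 7 transcripts. *Oxct1* (ENSMUSG00000022186.14) is on the plus strand at chr15:4026383-4155344 and is the longest of the 4 at 128962 bases. *Acat1* (ENSMUSG00000032047.5) is on the minus strand at chr9:53580522-53610382. All 4 are protein-coding genes on different chromosomes.

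The start regions of *Oxct1* and *Slc16a1* are shown because these were the members whose heterozygous libraries both lay below the wild-type ones. They come from the RefSeq promoter windows of GRCm38.p6, the assembly that mm10 represents, which span 250 bases before to 50 bases after a start site. Windows were found for 3 of the 4 members, with none for *Acat1*. The first sequence is the stretch of *Oxct1* at chr15:4026407-4026435, plus strand, which lies in the first bases of the GENCODE gene model and runs across the RefSeq start. Its capitals lie just before that start and mark the letters AGGGGGCGC read on the minus strand, a core of the motif that CTCF binds. The second is the 205 bases that end just before the GENCODE gene model of *Oxct1*, chr15:4026178-4026382, plus strand, with no capitals. The third is the 250 bases before the *Slc16a1* start, chr3:104638414-104638663, plus strand, with an E-box, CACGTG, in capitals.
Oxct1 start: gcaggctctaGCGCCCCCTccagcctgag
Oxct1 upstream: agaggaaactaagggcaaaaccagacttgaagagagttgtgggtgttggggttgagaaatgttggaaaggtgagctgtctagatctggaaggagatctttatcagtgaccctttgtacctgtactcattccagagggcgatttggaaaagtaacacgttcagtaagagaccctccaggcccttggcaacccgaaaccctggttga
Slc16a1 upstream: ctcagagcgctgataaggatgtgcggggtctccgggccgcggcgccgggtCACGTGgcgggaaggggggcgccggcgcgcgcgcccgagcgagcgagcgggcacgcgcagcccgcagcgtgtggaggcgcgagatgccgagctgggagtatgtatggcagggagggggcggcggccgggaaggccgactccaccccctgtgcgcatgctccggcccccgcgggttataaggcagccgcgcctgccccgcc

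The CTCF core was searched on both strands and began 11 bases before the RefSeq start in the *Oxct1* window, and it was in no other member window. It was in 409 of 32851 mouse promoter windows, or 1.25%. The E-box stood 200 bases before the *Slc16a1* start and was in 7.15% of all windows. The letters AAGGTCA, a half-site of nuclear receptors, were in none of the member windows and in 4.72% of all windows. These 3 motifs were chosen with the windows in view, and a match describes letters only. CTCF occupancy at these sites was not analysed here.

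The tissue label was checked against marker genes of heart cells. All 8 cardiomyocyte markers were above 0 in every library, 3 of the 5 skeletal muscle markers (the myosins *Myh1*, *Myh2* and *Myh4*) and 1 of the 4 hepatocyte markers (*Fga*) were listed at 0 in all 4, and 2 of each list were above 0 in every library at low levels given below. Mitochondrially encoded (mt-) genes took 64.7% and 61.1% of all TPM in the wild-type libraries and 68.6% and 62.6% in the heterozygous ones, so the remaining genes shared a smaller part of the total where that share was high. Libraries were divided by a median-of-ratios factor, from 0.821 to 1.27, and the values are called scaled TPM below. The *Ctcf* mRNA itself stood at 6.15 and 5.99 scaled TPM in wild-type and 7.48 and 5.71 in heterozygous libraries, and its level does not read the substitution. TPM keep no read depth, so the counting error behind each value is unknown.

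Per transcript length, the 4 genes fell into a high and a low pair. *Oxct1* stood at 38.82 and 44.5 deposited TPM in wild-type libraries, against 18.52 and 25.85 in heterozygous ones, and *Acat1* at 26.16 and 42.76 against 22.81 and 33.19. *Slc16a1* was lower, at 4.12 and 4.35 against 2.31 and 2.99, as was *Bdh1*, at 3.12 and 3.95 against 2.38 and 3.13. By mean scaled TPM *Acat1* ranked 807th, *Oxct1* 811th, *Slc16a1* 5905th and *Bdh1* 6182nd of the 10036 tested genes. In every library both members of the high pair were above both members of the low pair, from 6.35 times for *Acat1* over *Slc16a1* to 12.4 times for *Oxct1* over *Bdh1*. Within each pair the order of the deposited TPM was not the same in the 4 libraries.

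*Oxct1* was lower in both heterozygous libraries than in either wild-type one. Its scaled TPM was 35.9 in wild-type replicate 1, 35.1 in wild-type replicate 2, 22.6 in heterozygous replicate 1 and 28.4 in heterozygous replicate 2. The wild-type libraries were 2.12% of their mean apart and the heterozygous ones 22.9%, and the genotypes did not overlap. The wild-type mean was 35.5 ± 0.532 and the heterozygous mean 25.5 ± 4.12 (SD, n = 2 each), a difference of -28.2%. On the log2(scaled TPM + 1) scale the difference, heterozygous minus wild-type, was -0.47 with a standard error of 0.18 and a 95% interval from -0.90 to -0.04. The limma fit across all tested genes gave an unadjusted p of 0.0355 and a Benjamini-Hochberg adjusted p of 0.380, so *Oxct1* was not called. The two-sided exact permutation test gave p = 0.333, the smallest value that 2 against 2 libraries allow.

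*Slc16a1* also had no overlap between genotypes, with a smaller difference. Its scaled TPM was 3.81 and 3.43 with wild-type *Ctcf* and 2.81 and 3.28 with the heterozygous genotype, in replicate order. The gap between the lowest wild-type and the highest heterozygous value was narrow beside the spread within each genotype. The means were 3.62 ± 0.265 and 3.05 ± 0.332 (SD, n = 2 each), a difference of -15.7%. The log2 difference was -0.19 (standard error 0.14, 95% interval -0.53 to 0.15), with a limma adjusted p of 0.583 and an exact permutation p of 0.333. *Slc16a1* therefore did not pass the test. The 1 added before log2 draws differences of low genes toward 0, and adding 0.1 or 5 gave -0.24 or -0.10. When the libraries were scaled to the cardiomyocyte markers instead, the genotypes overlapped and the log2 difference was -0.01, and they also overlapped after a correction for GC content and transcript length.

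*Bdh1*, the dehydrogenase, overlapped between genotypes. It was 2.88 and 3.12 scaled TPM in wild-type and 2.90 and 3.44 in heterozygous libraries, so that heterozygous replicate 1 lay between the wild-type values. The log2 difference was 0.06 (standard error 0.14, 95% interval -0.28 to 0.39, limma adjusted p = 0.881), and the exact permutation p was 0.667. Its direction turned with the scaling and when heterozygous replicate 2 was left out.

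*Acat1*, the thiolase, varied more between replicates than between genotypes. It was 24.2 and 33.7 scaled TPM in wild-type and 27.8 and 36.5 in heterozygous libraries, with replicate 2 the higher one in both genotypes. The replicates of a genotype were 33.1% of their mean apart in wild-type and 27.0% in heterozygous libraries. The log2 difference was 0.15 (standard error 0.23, 95% interval -0.39 to 0.69, limma adjusted p = 0.799), and the exact permutation p was 0.667. Its direction turned without wild-type replicate 1, without heterozygous replicate 2, with deposited TPM and with the mt- genes removed.

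**Figure D1:**
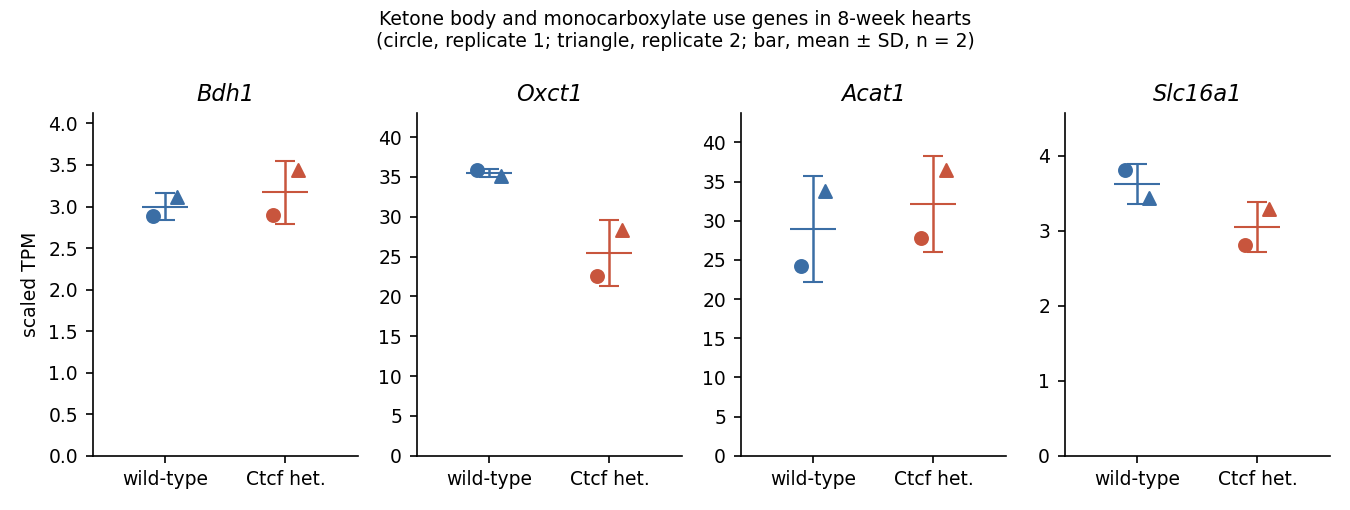
Scaled TPM (y axis, from 0) of the 4 genes in wild-type (blue) and *Ctcf* heterozygous (red) libraries, with 1 point per library, circles for replicate 1, triangles for replicate 2, and bars for the mean ± SD (n = 2). The heterozygous points lie below the wild-type ones for *Oxct1* (22.6 and 28.4 against 35.9 and 35.1) and *Slc16a1*, and overlap with them for *Bdh1* and *Acat1*.

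Counted together, 0 of the 4 genes passed an adjusted p under 0.05 with a fold change over 1.5, where 0.0299% of all tested genes (3 of 10036) did. *Oxct1* alone, 1 of 4, had an unadjusted p under 0.05, against 12.3% of all tested genes. *Oxct1* and *Slc16a1*, 2 of 4, were lower in heterozygous libraries without overlap, against 24.0% of all tested genes. The median log2 difference of the 4 genes was -0.07, beside -0.01 over all tested genes. In simulated data, the same fit called 181 of 200 genes changed by 1 on the log2 scale, beside 16 unchanged ones. That change is larger than that of any of the 4 genes here. The simulated noise was independent and normal, at a spread that limma had already drawn toward the common trend. The count therefore does not give the power of the fit on the real libraries.

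The way the libraries were scaled moved all 4 differences together. With deposited TPM the median of all tested genes was itself at -0.35, and with the mt- genes removed at -0.31. Removing the predicted (Gm) gene models as well put it at 0.05, and scaling to the cardiomyocyte markers at 0.18. The log2 difference of *Oxct1* ran from -0.89 to -0.24 over the 6 other scalings, and its heterozygous values were the lower ones without overlap in all 6. Taken relative to the median of all genes, it ran from -0.55 to -0.41. A scaling that divides each library by 1 factor shifts all genes nearly alike. The narrower ranges relative to the median, here and below, were thus largely fixed in advance. *Slc16a1* ran from -0.53 to -0.01, or from -0.22 to -0.18 relative to the median, and kept its genotypes apart in 5 of the 6. *Bdh1* had no overlap in 3 of the 6, lower in heterozygous libraries with the mt- genes removed, and higher with the mt- genes and the predicted (Gm) gene models removed and with the cardiomyocyte markers. *Acat1* had none in 1, higher with the cardiomyocyte markers. *Bdh1* stood 0.06 to 0.09 above the median and *Acat1* 0.07 to 0.21 above it. Thus the sign of the differences of *Bdh1* and *Acat1* followed the scaling, negative with deposited TPM and with the mt- genes removed and positive otherwise.

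**Figure D2:**
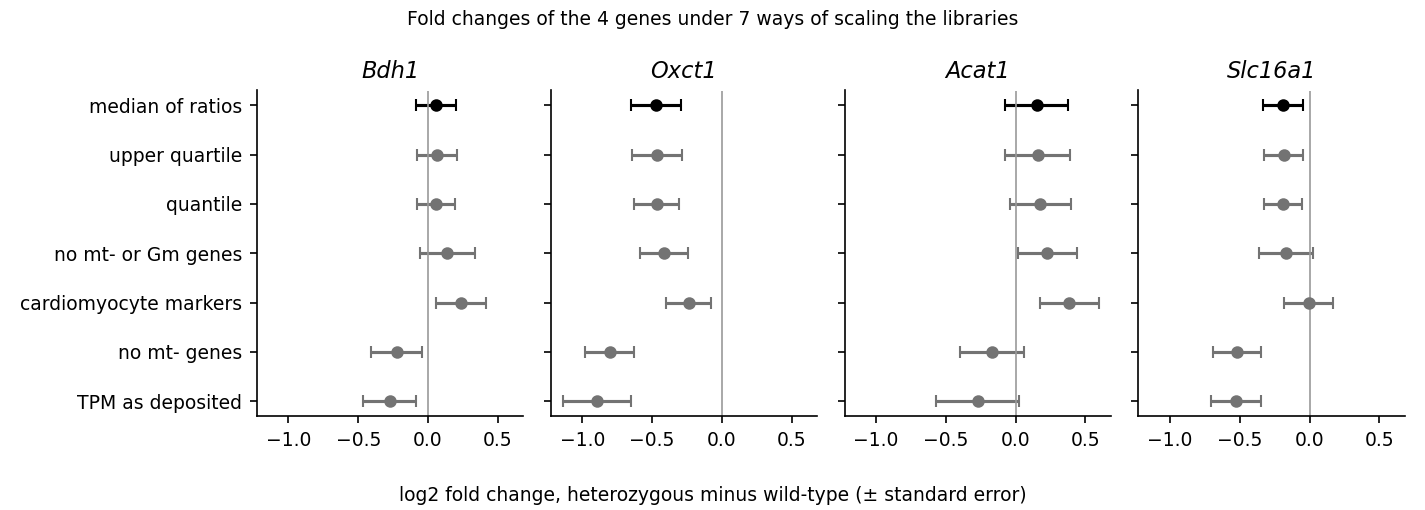
Log2 differences (x axis, heterozygous minus wild-type, with the limma standard error as bars) of the 4 genes under 7 ways of scaling the libraries, the one used in the text in black. *Oxct1* stays below 0 throughout, between -0.89 and -0.24, *Slc16a1* reaches -0.01 with the cardiomyocyte markers, and *Bdh1* and *Acat1* change sign.

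Ratios of 2 genes within a library do not depend on any scaling factor. The ratio of *Oxct1* to *Acat1*, the transferase over the thiolase that follows it, was 1.48 and 1.04 for wild-type replicates 1 and 2, against 0.812 and 0.779 for the heterozygous ones. *Oxct1* was thus the higher of the pair in both wild-type libraries and the lower in both heterozygous ones, with a log2 difference of -0.64 (exact permutation p = 0.333, the smallest possible). The wild-type libraries differed more in this ratio than the heterozygous ones, and the log2 difference was -0.39 without wild-type replicate 1 and -0.90 without wild-type replicate 2.

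The ratio of *Bdh1* to *Oxct1*, the dehydrogenase over the transferase, was 0.0804 and 0.0888 in wild-type and 0.129 and 0.121 in heterozygous libraries. It was higher in both heterozygous libraries, with a log2 difference of 0.56 (exact permutation p = 0.333), and stayed between 0.49 and 0.63 when any 1 library was left out. Both ratios share *Oxct1*, so they are not separate evidence. The ratio of *Slc16a1* to *Bdh1*, chosen after its values were seen, was 1.32 and 1.10 against 0.971 and 0.955, a log2 difference of -0.32 (exact permutation p = 0.333) that was -0.19 without wild-type replicate 1 and -0.46 without wild-type replicate 2.

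*Slc16a1* was also set against its partners. Basigin, encoded by *Bsg*, is the membrane glycoprotein that brings MCT1 to the cell surface, and the *Slc16a1* to *Bsg* ratio was 0.0129 and 0.00938 in wild-type and 0.0125 and 0.0110 in heterozygous libraries. These values overlapped (log2 difference 0.09, exact permutation p = 1.0). MCT4, encoded by *Slc16a3*, exports lactate from glycolytic cells, and the *Slc16a1* to *Slc16a3* ratio was 14.2 and 21.8 against 11 and 9.34. Its log2 difference was -0.79 (exact permutation p = 0.333), but it moved to -1.10 without wild-type replicate 1 and -0.49 without wild-type replicate 2, and *Slc16a3* lay at only 0.20 to 0.32 TPM. The ratio of *Ldha* to *Ldhb*, the muscle-type over the heart-type subunit of lactate dehydrogenase, overlapped at 0.413 and 0.340 against 0.471 and 0.379 (log2 difference 0.17, exact permutation p = 0.667, and from 0.016 to 0.33 when any 1 library was left out).

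**Figure D3:**
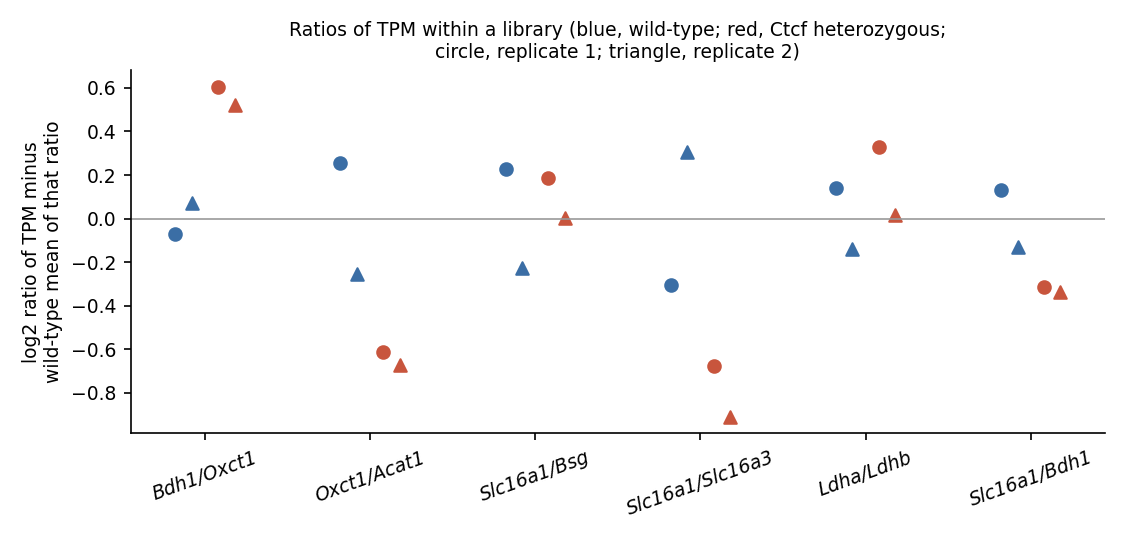
Log2 ratios of deposited TPM within each library, shown as the difference from the wild-type mean of that ratio (y axis), for wild-type (blue) and heterozygous (red) libraries, circles for replicate 1 and triangles for replicate 2. The heterozygous points are above both wild-type points for *Bdh1*/*Oxct1*, and below them for *Oxct1*/*Acat1*, *Slc16a1*/*Slc16a3* and *Slc16a1*/*Bdh1*. They are between the wild-type points for *Slc16a1*/*Bsg*. For *Ldha*/*Ldhb*, heterozygous replicate 1 is above both wild-type points and heterozygous replicate 2 between them.

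Each enzyme held most of the TPM of its small family in these hearts. *Oxct1* held 99.9% to 100% of the TPM of *Oxct1*, *Oxct2a* and *Oxct2b*, the latter being testis genes listed at 0 to 0.02 TPM. *Acat1* held 97.4% to 98.4% of *Acat1*, *Acat2* and *Acat3*, and *Bdh1* 85.5% to 92.6% of *Bdh1* and the cytosolic *Bdh2*. *Slc16a1* was 34.8% and 33.8% of the summed TPM of the 14 *Slc16a* genes in wild-type libraries and 30.1% and 33.9% in heterozygous ones, which overlap. No near-identical copy of a member was found among the annotated transcripts. *Oxct2a*, the relative of *Oxct1*, matched it at 69.4% identity. The transcript of *BC037032* on the opposite strand of the *Oxct1* start shares 468 bases with it and lay at 0.21 to 0.26 TPM, so their reads cannot be told apart there if the counting ignored strand. The antisense gene *Gm15743* within *Bdh1* lay at 0 to 0.08 TPM.

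Of 40 other genes of ketone, thiolase and monocarboxylate biology, 14 were tested and 0 passed the adjusted threshold. The log2 difference was negative in 10 and positive in 4, with a median of -0.21. Of all tested genes, 51.6% were negative, with a median of -0.01. Without overlap, 6 of the 14 were lower and 3 higher in heterozygous libraries, against 24.0% lower and 23.0% higher of all tested genes. An unadjusted p under 0.05 was found for *Hadhb* and *Slc16a10*, 2 of the 14, against 12.3% of all tested genes.

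Among the thiolase and 3-oxoacid CoA-transferase relatives, 4 of 9 were tested and 3 of them were lower without overlap, where 24.0% of all tested genes were. *Hadhb*, the thiolase subunit of the mitochondrial trifunctional protein, was 85.4 and 109 scaled TPM in wild-type and 62.7 and 72.0 in heterozygous libraries (log2 difference -0.51, limma adjusted p = 0.389). *Acaa2*, the mitochondrial thiolase of fatty acid oxidation, was 143 and 159 against 90.9 and 131 (-0.46, limma adjusted p = 0.445). *Scp2*, which carries a peroxisomal thiolase, was 52.7 and 56.1 against 38.3 and 44.5 (-0.39, limma adjusted p = 0.416). In all 3, as in *Oxct1*, heterozygous replicate 1 had the lowest value. *Acaa1a*, a peroxisomal thiolase, was 27.5 and 25.9 against 27.98 and 28.1 scaled TPM (0.07, limma adjusted p = 0.875), and lay lower in heterozygous libraries in deposited TPM.

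The genes of lactate and pyruvate handling gave 5 tested of 6, with none past the adjusted threshold. *Ldhb* was 198 and 236 scaled TPM in wild-type and 132 and 206 in heterozygous libraries, which overlap (log2 difference -0.39, limma adjusted p = 0.542). *Ldha* was 81.8 and 80.4 against 62.1 and 78.0 (-0.22), lower without overlap. Of the subunits of the mitochondrial pyruvate carrier, *Mpc1* was 111.34 and 122.3 against 90.98 and 111.31 (-0.21, limma adjusted p = 0.660). It was lower without overlap, but the gap was narrow beside the spread within each genotype. *Mpc2* overlapped, at -0.10. *Ldhd*, which oxidises D-lactate, was 9.47 and 9.24 against 10.1 and 10.2 scaled TPM (0.11, limma adjusted p = 0.762), and lay lower without overlap in deposited TPM.

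Of 17 genes of the monocarboxylate transporter family and its partners, 4 were tested. *Bsg* was 296 and 366 scaled TPM in wild-type and 225 and 298 in heterozygous libraries, which overlap (log2 difference -0.34, limma adjusted p = 0.547). *Slc16a10*, a transporter of aromatic amino acids named here after its values were seen, was 2.10 and 1.85 against 0.950 and 0.978. Its log2 difference was -0.60 (limma unadjusted p = 0.00351, adjusted p = 0.286), which the added 1 draws toward 0 at so low a level. *Slc16a10* was thus further from its wild-type values than *Slc16a1*, although neither passed the adjusted threshold. *Slc16a13*, also below the level for named genes, was 1.06 and 1.14 against 1.36 and 1.71, higher without overlap (0.27, limma adjusted p = 0.471), and *Slc16a6* overlapped at a log2 difference of -0.01. *Slc16a7*, which encodes the transporter MCT2, lay at 0.06 to 0.17 TPM and was not tested.

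*Aacs*, the cytosolic enzyme that activates acetoacetate for lipid synthesis, was named after its values were seen and was below the level tested, at 0.453 and 0.560 against 1.01 and 0.890 scaled TPM. Of the 3 receptors of ketone bodies, lactate and short fatty acids, *Hcar2* and *Ffar3* were listed at 0 in every library.

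**Figure D4:**
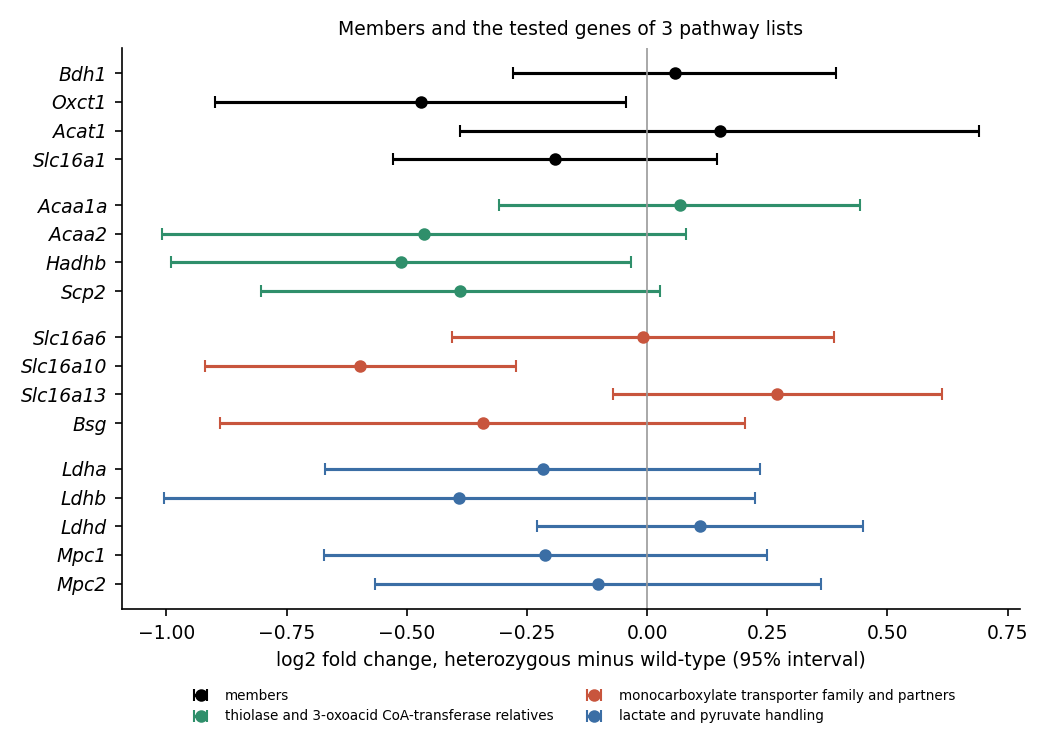
Log2 differences (x axis, heterozygous minus wild-type, with the 95% limma interval as bars) of the 4 genes (black) and the tested genes of 3 pathway lists, coloured by list. The intervals of *Oxct1*, *Hadhb* and *Slc16a10* lie below 0 before adjustment, and the others cross 0.

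The cell composition of the hearts cannot be told apart from the level per cell in bulk RNA, since fewer cells of a type and less RNA per cell give the same value. The summed scaled TPM of the 8 cardiomyocyte markers was 25013 and 23242 in wild-type and 19979 and 23785 in heterozygous libraries, with 6 of the 8 lower and 4 lower without overlap, against 51.6% and 24.0% of all tested genes. Heterozygous replicate 1, with the lowest cardiomyocyte sum and the highest mt- share, also had the lowest scaled TPM of *Oxct1* and *Slc16a1*. *Bdh1* and *Acat1* were lowest in wild-type replicate 1. With the libraries scaled to these markers, the log2 difference of *Oxct1* was -0.24 without overlap (standard error 0.16, limma adjusted p = 0.480), against -0.47 before. The same scaling gave -0.01 with overlap for *Slc16a1*. *Bdh1* at 0.24 and *Acat1* at 0.38 were then higher in heterozygous libraries without overlap. The endothelial sum was 266 and 262 against 296 and 341, although 4 of its 6 genes were lower, with a median log2 difference of -0.08. Without overlap, 2 of the 6 were higher and 2 lower, against 23.0% and 24.0% of all tested genes. The fibroblast sum was 42.1 and 60.4 against 33.6 and 40.1, with 5 of 6 genes lower, and that of smooth muscle and pericytes 79.8 and 71.9 against 54.9 and 71.8, with 6 of 6 lower. The erythroid sum was 934 and 981 against 962 and 2104, high in heterozygous replicate 2 alone. Of the 5 erythroid genes 0 were lower, with a median log2 difference of 0.53, and 1 was higher without overlap. The immune sum was 7.01 to 8.07 in all 4 libraries, the brown adipocyte sum 5.51 to 6.18, the skeletal muscle sum 0.489 to 1.77, and the adipocyte and hepatocyte sums stayed under 1. The part of these shifts in the results was not tested.

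Likeness to each gene was measured over the 4 libraries as the root mean square difference in centred log2(scaled TPM + 1), among 4549 genes at 5 or more scaled TPM. Nearest to *Oxct1* were *Gm15500* (0.0127), *Polr2j* (0.0220), an RNA polymerase II subunit, and *Pln* (0.0259), the phospholamban gene. *Pln* was 426 and 417 scaled TPM in wild-type and 263 and 345 in heterozygous libraries, and it is also 1 of the 8 cardiomyocyte markers. In all, 240 genes lay within 0.1 of *Oxct1*, so its pattern is not particular to it. Nearest to *Slc16a1* were *Lamtor5* (0.0109), *Tinagl1* (0.0185) and *Urod* (0.0244), a haem synthesis enzyme, with 552 genes within 0.1. *Bdh1* had 617 genes within 0.1, led by *Cops5*, *Rp9* and *Bscl2*. *Acat1* had 26, led by *Hyi*, *Ndufaf8* and *Aldh16a1*. Between the members the closest pair was *Bdh1* and *Slc16a1*, at 0.143, and the farthest *Oxct1* and *Acat1*, at 0.358. *Bdh1* and *Slc16a1* lie below the 5 scaled TPM asked of the compared genes, and the added 1 shrinks their spread. Their counts and distances are therefore not directly comparable with those of *Oxct1* and *Acat1*.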

How the data were processed

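Heart RNA of 2 wild-type and 2 *Ctcf* heterozygous libraries at 8 weeks was analysed from 1 table, in which the authors deposited TPM per gene. The labels give mRNA capture with beads before library construction. Per the labels and the methods, Trim Galore (0.6.10) clipped the reads, STAR (2.7.4a) placed them on mm10, and RSEM (1.2.28) gave the gene values. The annotation release, and the use of strand in the counting, are not given in the sources used here. TPM sum to a fixed total, so an abundant class lowers all others and no depth or counting error is known. Columns of per-sample values that were not used numbered 0.

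TPM were divided by a median-of-ratios factor over genes above 0 in every library, 1 was added and log2 taken. The limma test (3.58.1, R 4.3.3; two-sided, lmFit, then eBayes with trend) covered the 10036 genes whose mean TPM reached 1, and p values were adjusted over them by the Benjamini-Hochberg method. Every adjusted p is from limma, whose prior had 4.76 degrees of freedom. Single ratios were tested with exact permutation tests (scipy 1.17.1). Scripts were tested on simulated data with 200 changed genes. Coordinates are from GENCODE for mm10, which matched 55141 identifiers without version.

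Named were the members, list genes with a mean of at least 5 scaled TPM, and the 3 most alike genes of each member; the others named were chosen after their values were seen. Some genes of the lists count in the totals but are not reported here. The members, lists and tests were chosen with earlier results of these data known. Alternatives were other scalings, pseudocounts, filters, empirical Bayes settings, a GC and length correction, the replicate block and leaving out each library.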

Additional observations from a re-analysis of the deposited data

How the results depend on the processing

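*Oxct1* kept its direction in all 19 alternatives, from -0.89 to -0.24, and *Slc16a1* in all 18, from -0.53 to -0.01. With all 4 libraries kept, the limma adjusted p of *Oxct1* ran from 0.0693 to 0.547. The filters, empirical Bayes settings and replicate block cannot change these differences, so the direction was fixed in advance in those alternatives. *Bdh1* turned in 3, to -0.27 with TPM as deposited, -0.23 with the mt- genes removed and -0.040 without heterozygous replicate 2. *Acat1* turned in 4, to -0.27 with TPM as deposited, -0.17 with the mt- genes removed, -0.089 without wild-type replicate 1 and -0.043 without heterozygous replicate 2. None of the 4 passed an adjusted p of 0.05 in any alternative. Leaving out each library gave -0.64 to -0.32 for *Oxct1*, -0.28 to -0.11 for *Slc16a1*, -0.040 to 0.15 for *Bdh1* and -0.089 to 0.38 for *Acat1*, where the lone library of a genotype is assumed to vary like the others. The *Slc16a1* to *Bsg* ratio turned to -0.13 without wild-type replicate 2, and its range was -0.13 to 0.32.

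Across the table, 3 genes were called, against 13 with TPM as deposited, 14 with the mt- genes removed and 8 with cardiomyocyte scaling. Robust empirical Bayes gave 5. With no filter on low values 0 were called, where 24424 genes were tested and the variance trend was fitted anew. Leaving out each library gave 6 to 23. The cause of these shifts was not tested. Same-numbered libraries share only a number, and their deviations correlated at 0.101. With the replicate block 11 genes were called, and 5 with the block and the GC and length correction. The blocked adjusted p was 0.312 for *Oxct1*, 0.585 for *Slc16a1*, 0.714 for *Acat1* and 0.881 for *Bdh1*, and the block changed no call of these. *Bdh1* and *Slc16a1* have no value with a mean TPM of at least 5. Depth is unknown, and differences as small as that of *Slc16a1* did not pass at 2 libraries a genotype.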
